A study of Mus musculus with 24 samples.

Results

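This report describes the nuclear genes of the mitochondrial respiratory chain and ATP synthase in cultured mouse CD8+ T cells. Members were the gene symbols in the deposited tables that start with Nduf, Uqcr, Cox4 to Cox8 or Atp5, together with Sdha, Sdhb, Sdhc and Sdhd, and that had a mean of at least 1 FPKM (fragments scaled by gene length and library size) over all 24 libraries. Of 23366 genes, 92 symbols matched and 87 reached that mean. They comprise 36 subunits of complex I, 7 complex I assembly factors, 4 subunits of complex II, 8 of complex III, 15 of complex IV, 15 of ATP synthase, and Atp5s and Atp5sl, 2 factors that carry an Atp5 symbol but are not subunits. The 5 symbols left out were isoforms with means of 0.21 FPKM or less, namely Cox4i2, Cox7b2, Cox8b, Cox8c and Ndufa4l2. The members nearest above the minimum were Cox7a1 at 4.57 FPKM and Atp5s at 6.51 FPKM, and the highest was Atp5b at 1028 FPKM. No mitochondrially encoded gene symbol was found in the tables, so the 87 members are all nuclear genes. They are not the whole nuclear part of the chain. Nuclear genes with other symbols, such as Cyc1, Cycs and Usmg5, are outside the rule and are counted in a separate list.

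The study activated naive CD8+ T cells from C57BL/6 mice with antibodies to CD3 and CD28 and sequenced small pools of sorted cells, in 8 groups of 3 libraries. The 4 groups of day 3 had been stimulated for 3 days. They were wild type cells (WT, E8i-Cre- Nr3c1 fl/fl) and conditional knockout cells (cKO, E8i-Cre+ Nr3c1 fl/fl), each without addition (Ctrl) or with dexamethasone at 10 nM (Dex), a synthetic ligand of the glucocorticoid receptor that Nr3c1 encodes. Both genotypes therefore carry floxed Nr3c1, and E8i-Cre is driven by a Cd8a enhancer that is active in mature CD8+ T cells. The 4 groups of day 9 were WT cells stimulated for 3 days, rested for 3 days in IL2 and stimulated again for 3 days, as Ctrl, with Dex, with the cytokine IL27 at 25 ng/ml, or with both (Dex+IL27). Day was not tested by itself, because culture history and the first letter of the sample titles run with it. Whether the libraries of a group came from separate mice or cultures is not in the labels. The p-values here therefore rest on a spread that may be technical.

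Complex I takes electrons from NADH and complex II from succinate, complex III passes them through cytochrome c to complex IV, which reduces oxygen, and ATP synthase uses the proton gradient that complexes I, III and IV build. Most subunits are encoded in the nucleus and imported, and several complex IV subunits and the c subunit of ATP synthase have paralogous genes. T cells that are activated are known to enlarge both glycolysis and mitochondrial metabolism.

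Library totals of estimated counts ran from 14221883 to 19018440. Nr3c1, the deleted gene, was at 14.97 to 18.5 CPM (counts scaled to library size) in day 3 WT Ctrl, 19.4 to 21.5 in WT Dex, 7.18 to 8.30 in cKO Ctrl and 5.38 to 8.27 in cKO Dex. The 5 CD8 T cell markers were present in each group. At day 9 they summed to 815 to 917 FPKM in Ctrl, 1038 to 1178 with Dex, 911 to 1170 with IL27 and 1004 to 1234 with Dex+IL27. Against Ctrl, 3 of 5 were higher in each comparison, and 0, 2 and 1 were lower with Dex, IL27 and Dex+IL27. Cd8a was at 116 ± 14.6 FPKM in Ctrl and 77.4 ± 9.64 with IL27 (SD, n = 3). The 4 CD4 T cell markers were detected in each group of day 9 and summed to 6.76 to 13.4 FPKM in Ctrl, 3.98 to 5.00 with Dex, 5.42 to 6.69 with IL27 and 3.86 to 4.33 with Dex+IL27. Among them Cd40lg was at 5.02 to 11.1 FPKM in Ctrl and at most 1.40 in the other 9 libraries, and Cd4 was at 1.00 FPKM or less in all 12. At day 9 the ribosomal RNA symbol Rn45s took 9.11% of counts in Ctrl, 14.6% with Dex, 14.1% with IL27 and 16.0% with Dex+IL27. With Rn45s left out, 69, 67 and 73 members passed the test against Ctrl, beside 68, 67 and 74 with it. All 4 NK cell markers were detected in day 9 Ctrl and Dex and 3 of 4 with IL27 and with Dex+IL27, where Ncr1 was at 0. Their summed level was 109 to 127 FPKM in day 9 Ctrl, 165 to 190 with Dex, 217 to 238 with IL27 and 189 to 200 with Dex+IL27, almost all of it Klrc1. Of the 3 NK markers tested, 1 was higher and 1 lower in each comparison with Ctrl, and Eomes went from 2.01 to 3.01 FPKM in Ctrl to 0.07 to 0.56 with Dex, 0.12 to 0.37 with IL27 and 0.02 to 0.05 with Dex+IL27. The myeloid and dendritic markers summed to 2.37 to 4.21 FPKM in day 9 Ctrl, 9.87 to 12.3 with Dex, 11.98 to 14.3 with IL27 and 13.9 to 15.1 with Dex+IL27. Most of that sum was Cd68 in each group, with Lyz2 and Emr1 at 0 in every library with Dex or Dex+IL27. In Ctrl, Cd68 was at 1.56 to 3.34 FPKM and Cd14 at 0.51 to 0.74. Beyond these measurements, the part of these markers in the results was not tested. In such pooled libraries, fewer cells of a type and less RNA per cell cannot be told apart.

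At day 9 the summed transcript level of the 87 members was lower with each addition than in Ctrl, whereas the 4 groups of day 3 lay close together. The sum was 18972, 19297 and 18776 FPKM in the 3 Ctrl libraries of day 9, 15020, 15278 and 15721 with Dex, 15973, 16395 and 16130 with IL27, and 13987, 15004 and 14479 with Dex+IL27. The lowest Ctrl library was thus above each of the 9 libraries with an addition. At day 3 the group means ran from 17735 ± 461 FPKM in WT Dex to 18501 ± 208 in cKO Dex (SD, n = 3 each). Of the 87 members, 57 had their lowest group mean in day 9 Dex+IL27 and 42 had their highest in day 9 Ctrl.

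**Figure D1:**
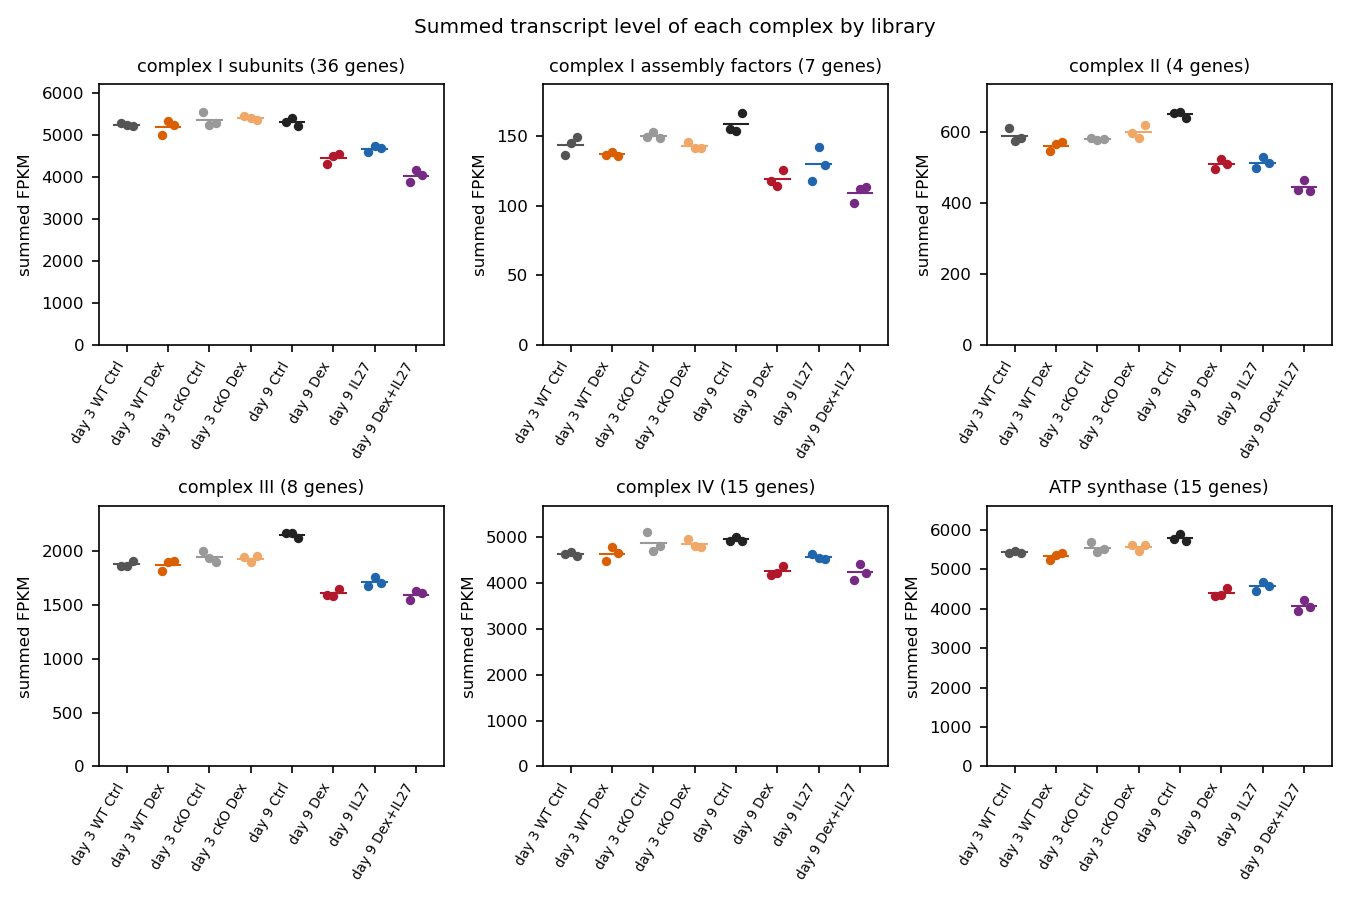
Summed FPKM of the members of each complex in each library (points) with the group mean (line), for the 4 groups of day 3 and the 4 groups of day 9, 3 libraries each, with the vertical axes starting at 0. In ATP synthase the day 9 Ctrl libraries sit between 5723 and 5906 and the Dex+IL27 libraries between 3935 and 4217.

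By their means, the groups of day 9 stood in the same order in all 5 complexes, with Ctrl highest, then IL27, Dex and Dex+IL27, though several neighbours in that order overlapped. Complex I subunits summed to 5310 ± 91.3 FPKM in Ctrl, 4664 ± 66.04 with IL27, 4445 ± 122 with Dex and 4029 ± 141 with Dex+IL27 (SD, n = 3 each, as for the sums that follow). The 4 complex II genes summed to 651 ± 8.36 FPKM in Ctrl, 515 ± 15.5 with IL27, 511 ± 14.9 with Dex and 446 ± 18.2 with Dex+IL27, and the IL27 and Dex groups overlapped. Complex III summed to 2149 ± 27.6 FPKM in Ctrl, 1712 ± 45.4 with IL27, 1607 ± 36.1 with Dex and 1594 ± 43.1 with Dex+IL27, the last 2 overlapping. Complex IV summed to 4939 ± 56.1 FPKM in Ctrl, 4553 ± 58.1 with IL27, 4245 ± 101 with Dex and 4222 ± 167 with Dex+IL27, and here too Dex and Dex+IL27 overlapped. ATP synthase summed to 5796 ± 97.3 FPKM in Ctrl, 4572 ± 118 with IL27, 4394 ± 105 with Dex and 4065 ± 143 with Dex+IL27, and the IL27 and Dex groups overlapped. No test was made on these sums.

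At day 9, 60 of the 87 members fell and 8 rose with Dex against Ctrl in edgeR's quasi-likelihood test (adjusted p under 0.05), where 55.6% of all genes tested passed, 27.4% falling and 28.2% rising. With IL27, 51 fell and 16 rose, against 57.4% of all genes passing, 28.1% falling and 29.3% rising. With Dex+IL27, 61 fell and 13 rose, against 66.9% passing, 32.6% falling and 34.3% rising. All 87 members passed the low-count filter. The shares of all genes were not limited to genes of like level, and how far level bears on passing was not tested. By FPKM, 66 members with Dex, 56 with IL27 and 63 with Dex+IL27 had all 3 libraries below all 3 of Ctrl, beside 32.4%, 32.2% and 35.6% of all genes tested. All 3 libraries were above those of Ctrl for 14, 17 and 13 members, beside 31.9%, 31.5% and 34.5% of all genes. Their median log2 fold change (1 unit is a 2-fold change) was -0.33 with Dex, -0.22 with IL27 and -0.41 with Dex+IL27, beside 0.03, 0.03 and 0.05 over all genes tested. These 3 comparisons share the Ctrl libraries, so their values are given side by side and not as separate evidence. Scaling by library totals alone moved the median of all genes with Dex+IL27 from 0.05 to -0.07 and that of the members to -0.53.

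**Figure D2:**
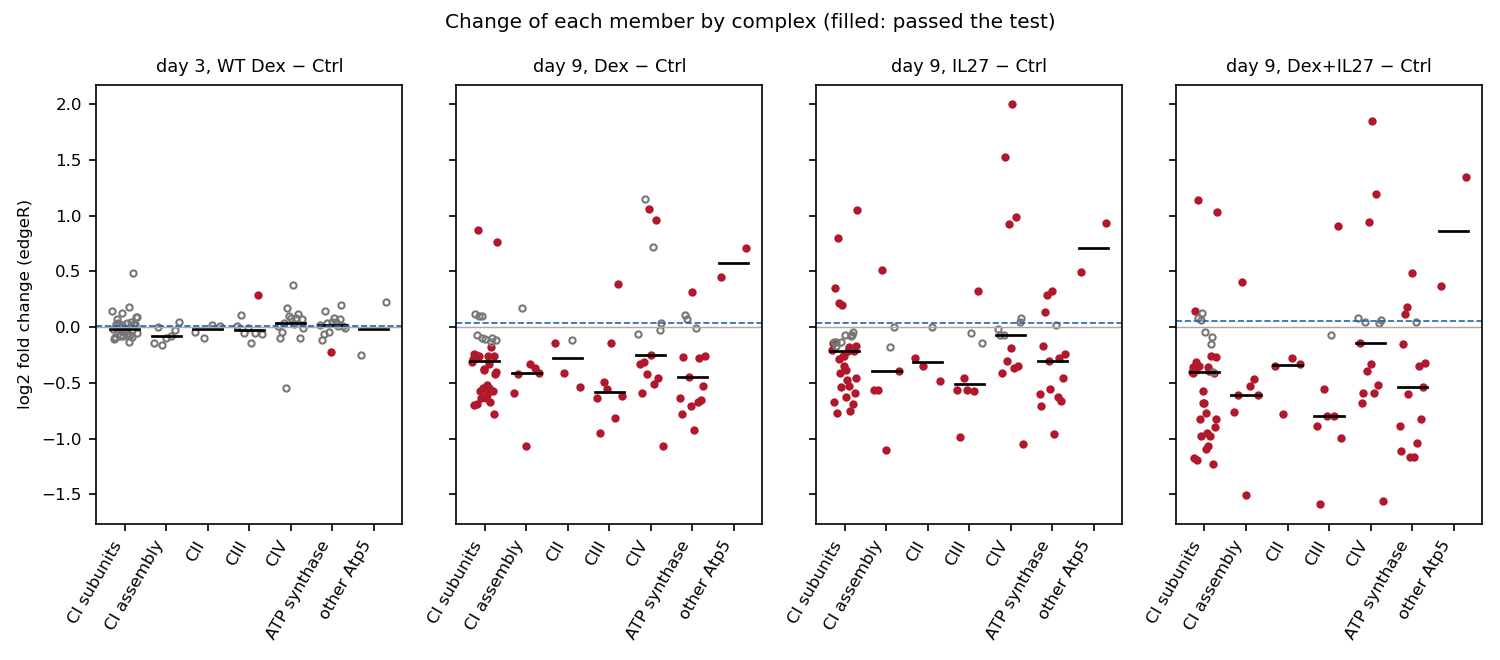
Log2 fold change of each of the 87 members, by complex, in day 3 WT Dex and in the 3 day 9 groups, each against the Ctrl of its day. Filled points passed edgeR's test, open points did not, the black line is the median of the complex and the dashed line the median of all genes tested. At day 9 most filled points lie below 0 in each complex, with medians of -0.59 for complex III and -0.45 for ATP synthase with Dex.

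Among the complex I subunits, 25 of 36 fell and 2 rose with Dex, 22 fell and 5 rose with IL27, and 26 fell and 3 rose with Dex+IL27. These counts and those of the other complexes are to be read beside the shares of all genes. With Dex, IL27 and Dex+IL27, 27.4%, 28.1% and 32.6% of all genes fell and 28.2%, 29.3% and 34.3% rose. Of the 7 nuclear core subunits, which carry the redox centres, 5, 5 and 6 fell and none rose in these 3 comparisons. Ndufs1, the largest iron-sulfur core subunit, was at 56.9, 60.3 and 54.4 FPKM in the Ctrl libraries, 35.9, 35.5 and 35.2 with Dex, 30.0, 37.2 and 33.3 with IL27 and 29.5, 28.0 and 27.3 with Dex+IL27. Each library with an addition was below each Ctrl library. Ndufs1 fell by 0.67 ± 0.08 with Dex (log2 ± SE, edgeR adjusted p = 3.12e-06), by 0.76 ± 0.08 with IL27 (9.38e-07) and by 0.98 ± 0.08 with Dex+IL27 (3.22e-08). RefSeq lists the noncoding RNA Ino80dos over 44.2% of the Ndufs1 locus, counted from gene start to gene end with introns. These libraries do not keep strand, and whether the 2 genes share reads was not tested. Ndufv1, the core subunit that binds NADH, changed by -0.40 ± 0.07, -0.46 ± 0.07 and -0.82 ± 0.07 in the same order (adjusted p = 0.00019, 5.76e-05 and 8.54e-08).

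Accessory subunits of complex I moved in both directions. Ndufa5, an accessory subunit of the matrix arm, was at 126, 141 and 133 FPKM in Ctrl, 69.4, 86.5 and 76.7 with IL27 and 58.7, 56.1 and 56.0 with Dex+IL27. These groups did not overlap, and the levels with Dex are not given here. Ndufa5 changed by -0.69 ± 0.09 with Dex, -0.77 ± 0.09 with IL27 and -1.19 ± 0.09 with Dex+IL27 (adjusted p = 8.33e-06, 2.74e-06 and 1.73e-08). Ndufb6, a subunit of the membrane arm, changed by -0.64 ± 0.08 with Dex and -1.09 ± 0.08 with Dex+IL27 (adjusted p = 4.82e-06 and 9.78e-09). Ndufa6, an accessory subunit that binds the mitochondrial acyl carrier protein, went the other way. It was at 150, 140 and 147 FPKM in Ctrl, 269, 254 and 271 with Dex, 278, 230 and 247 with IL27 and 297, 330 and 312 with Dex+IL27, with no overlap between Ctrl and the rest. Ndufa6 rose by 0.87 ± 0.08, 0.80 ± 0.08 and 1.14 ± 0.08 (adjusted p = 2.53e-07, 5.22e-07 and 6.31e-09). Ndufv3, an accessory subunit of the NADH-oxidising module, was at 139, 143 and 139 FPKM in Ctrl and at 337, 241 and 285 with IL27, a rise of 1.05 ± 0.10 (adjusted p = 6.38e-07).

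Of the 7 complex I assembly factors, 6 fell with Dex, 4 fell and 1 rose with IL27, and 6 fell and 1 rose with Dex+IL27. Ndufaf4 showed the lowest log2 change among them in each comparison. It was at 15.1, 15.2 and 16.6 FPKM in Ctrl, 7.60, 7.25 and 7.34 with Dex, 4.68, 7.94 and 8.97 with IL27 and 5.32, 5.53 and 5.22 with Dex+IL27. The Ctrl libraries were above all others, and the IL27 libraries spread over the range of both Dex groups. Ndufaf4 changed by -1.07 ± 0.16, -1.10 ± 0.16 and -1.51 ± 0.16 with Dex, IL27 and Dex+IL27 (adjusted p = 4.85e-05, 3.17e-05 and 1e-06). Ndufaf1, a factor of the intermediate membrane arm, changed by -0.59 ± 0.10, -0.56 ± 0.10 and -0.76 ± 0.10 (adjusted p = 0.000115, 0.000155 and 5.8e-06). Ndufaf3 was the factor that rose with IL27, by 0.51 ± 0.11 (adjusted p = 0.00138).

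In complex II, 3 of 4 genes fell with Dex, 3 with IL27 and 4 with Dex+IL27, and none rose. Sdhb, the iron-sulfur subunit, was at 280, 285 and 276 FPKM in Ctrl, 198, 218 and 211 with Dex, 191, 238 and 226 with IL27 and 158, 167 and 153 with Dex+IL27. The Dex+IL27 libraries were below all others, and those with Dex or IL27 alone overlapped. Sdhb changed by -0.41 ± 0.07, -0.35 ± 0.07 and -0.78 ± 0.07 (adjusted p = 0.000235, 0.000929 and 2.6e-07). Sdhd, a membrane anchor, followed another order. It was at 147, 147 and 142 FPKM in Ctrl, 95.5, 103 and 99.8 with Dex, 111, 97.5 and 99.2 with IL27 and 106, 125 and 107 with Dex+IL27, so the libraries with both agents were not the lowest. Sdhd changed by -0.53 ± 0.07, -0.49 ± 0.07 and -0.33 ± 0.07 (adjusted p = 2.5e-05, 5.53e-05 and 0.00117). Sdha, the flavoprotein, changed by -0.14 ± 0.05, -0.28 ± 0.05 and -0.35 ± 0.05 (adjusted p = 0.0261, 0.00025 and 1.85e-05). The call of Sdha with Dex was lost without the low-count filter and without Ctrl replicate 2, Ctrl replicate 3 or Dex replicate 3 (adjusted p from 0.00252 to 0.103 over its 14 alternatives, of which 4 lost it). Sdhc, the other anchor, passed with Dex+IL27 (-0.28 ± 0.08, adjusted p = 0.00434) and had log2 changes of -0.12 with Dex and 0.00 with IL27 that did not pass.

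In complex III, 7 of 8 genes fell and 1 rose with Dex, 5 fell and 1 rose with IL27, and 6 fell and 1 rose with Dex+IL27. Uqcr11, a small accessory subunit, had the lowest log2 change of the 87 members with Dex+IL27. It was at 259, 251 and 239 FPKM in Ctrl, 123, 132 and 130 with Dex, 118, 130 and 126 with IL27 and 78.5, 74.0 and 90.4 with Dex+IL27. The Ctrl libraries were highest, the Dex+IL27 libraries lowest, and the libraries with 1 agent lay between them and overlapped each other. Uqcr11 changed by -0.95 ± 0.08, -0.98 ± 0.08 and -1.58 ± 0.08 (adjusted p = 2.58e-07, 1.81e-07 and 9.32e-10). Uqcrfs1, the Rieske iron-sulfur protein, was at 203, 206 and 207 FPKM in Ctrl, 123, 113 and 111 with Dex, 140, 132 and 138 with IL27 and 117, 112 and 117 with Dex+IL27. Its Dex and Dex+IL27 libraries overlapped, and it changed by -0.82 ± 0.06, -0.57 ± 0.06 and -0.80 ± 0.06 (adjusted p = 4.94e-08, 1.23e-06 and 1.92e-08).

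Further members of complex III differed from each other. Uqcrc1, a core protein, changed by -0.55 ± 0.05, -0.56 ± 0.05 and -0.80 ± 0.05 with Dex, IL27 and Dex+IL27 (adjusted p = 4.21e-07, 3.54e-07 and 4.38e-09). Uqcrc2, its partner, passed with Dex at -0.14 ± 0.05 (adjusted p = 0.0247) and had values of -0.05 and -0.07 that did not pass with IL27 and Dex+IL27. The Uqcrc2 call was lost without the low-count filter and without Ctrl replicate 3, Dex replicate 1 or Dex replicate 2 (adjusted p from 0.00237 to 0.0782). Uqcrh, the hinge protein that sits beside cytochrome c1, was the complex III gene that rose. It was at 319, 301 and 289 FPKM in Ctrl, 418, 366 and 396 with Dex, 434, 345 and 345 with IL27 and 524, 550 and 580 with Dex+IL27, with Dex+IL27 above all other libraries. Uqcrh rose by 0.39 ± 0.09 with Dex (adjusted p = 0.00179), by 0.32 ± 0.09 with IL27 (0.00617) and by 0.90 ± 0.09 with Dex+IL27 (3.87e-07). RefSeq lists the pseudogene Gm12854 over 21.2% of the Uqcrh locus and 2 pseudogenes named after it elsewhere, so its reads may be shared.

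**Figure D3:**
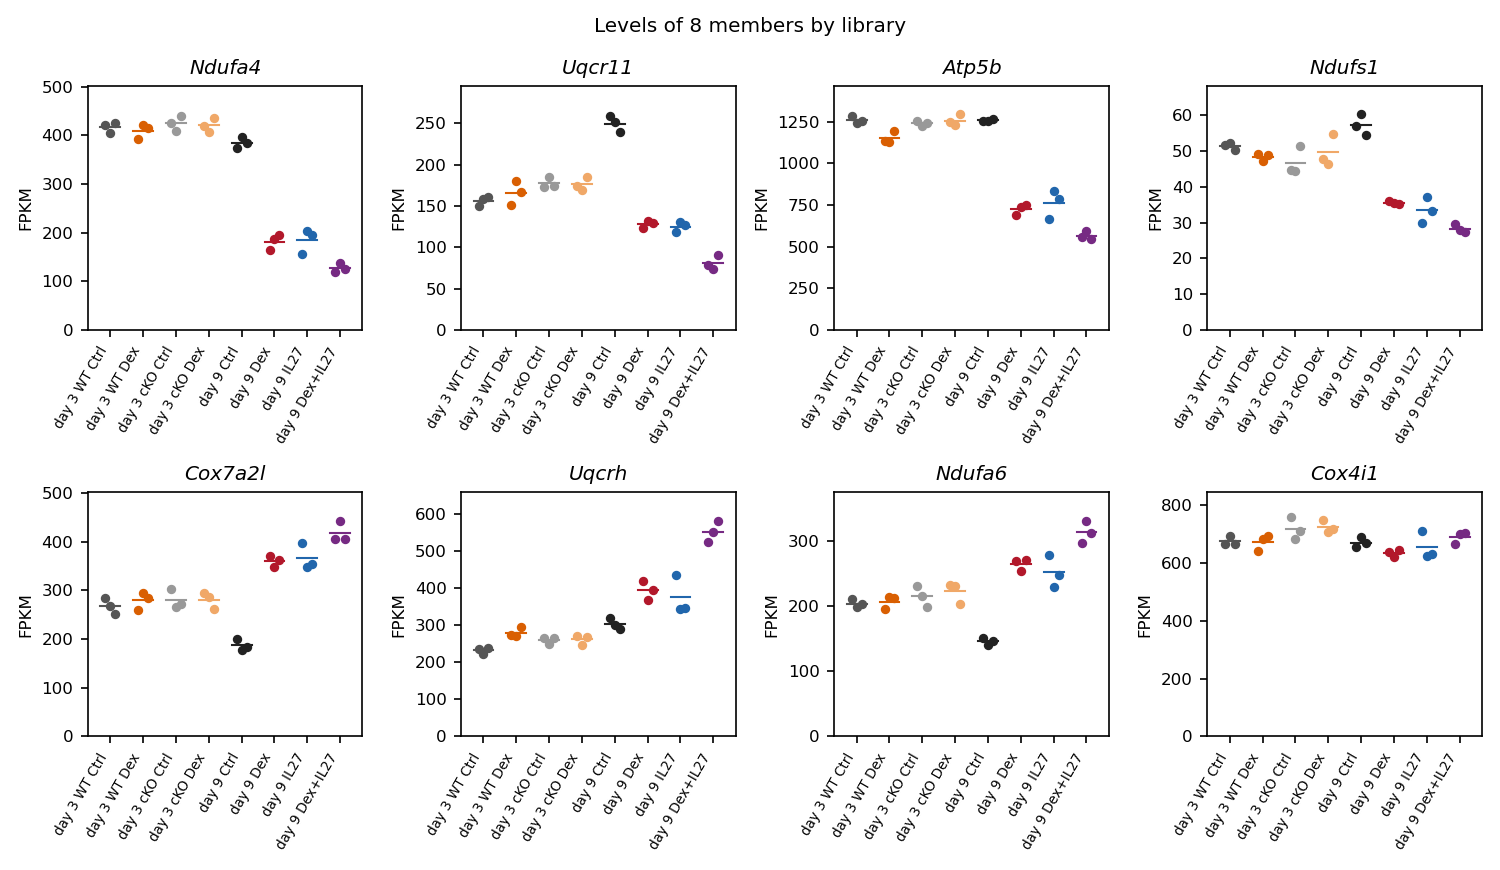
FPKM of 8 members in each library (points) with the group mean (line), vertical axes from 0. Ndufa4, Uqcr11, Atp5b and Ndufs1 are lower in the 9 day 9 libraries with an addition than in the 3 Ctrl libraries, Cox7a2l, Uqcrh and Ndufa6 are higher, and Cox4i1 stays between 621 and 709 FPKM at day 9.

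In complex IV, 8 of 15 genes fell and 2 rose with Dex, 6 fell and 4 rose with IL27, and 8 fell and 3 rose with Dex+IL27. In all, 66.7%, 66.7% and 73.3% of the 15 passed, not far from the 55.6%, 57.4% and 66.9% of all genes. The median log2 change of the complex was -0.25, -0.07 and -0.14. Ndufa4, a subunit of cytochrome c oxidase despite its symbol, was at 373, 395 and 385 FPKM in Ctrl, 164, 186 and 195 with Dex, 156, 202 and 195 with IL27 and 118, 137 and 125 with Dex+IL27. Every library with an addition was below each Ctrl library, and those with Dex+IL27 were lowest. Ndufa4 changed by -1.07 ± 0.09, -1.05 ± 0.09 and -1.56 ± 0.10 (adjusted p = 2.82e-07, 3.29e-07 and 3e-09). Cox5b, a nuclear subunit that binds zinc, changed by -0.59 ± 0.06, -0.41 ± 0.06 and -0.68 ± 0.06 (adjusted p = 1.5e-06, 4.01e-05 and 1.46e-07). Cox4i1, the nuclear subunit with which assembly of the enzyme starts around the mitochondrially encoded core, did not pass in any of the 3. It was at 655, 688 and 668 FPKM in Ctrl, 639, 621 and 646 with Dex, 709, 623 and 631 with IL27 and 665, 702 and 704 with Dex+IL27. The Dex libraries of Cox4i1 were just below those of Ctrl and the other groups overlapped with it, at log2 changes of -0.07, -0.02 and 0.08.

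In ATP synthase, 11 of 15 genes fell and 1 rose with Dex, and 11 fell and 3 rose with IL27 and with Dex+IL27. Atp5b, the catalytic beta subunit, was at 1253, 1255 and 1265 FPKM in Ctrl, 693, 740 and 751 with Dex, 665, 837 and 786 with IL27 and 558, 594 and 547 with Dex+IL27. Ctrl was highest and Dex+IL27 lowest, without overlap, while the IL27 libraries spanned those with Dex. Atp5b changed by -0.78 ± 0.07, -0.71 ± 0.07 and -1.11 ± 0.07 (adjusted p = 2.29e-07, 5.18e-07 and 2.66e-09). Atp5a1, the alpha subunit that alternates with beta in the catalytic head, changed by -0.63 ± 0.06, -0.60 ± 0.06 and -0.89 ± 0.06 (adjusted p = 3.31e-07, 5.14e-07 and 4.32e-09). Atp5j, coupling factor 6 of the stalk, changed by -0.68 ± 0.07, -0.63 ± 0.07 and -1.04 ± 0.07 (adjusted p = 1.98e-06, 3.62e-06 and 1.14e-08), and RefSeq lists Gabpa over 12.1% of its locus. Both factors with Atp5 symbols rose in all 3 comparisons. Atp5sl, an assembly factor of the membrane arm of complex I, was at 7.12, 7.31 and 7.22 FPKM in Ctrl and at 17.9, 16.8 and 18.9 with Dex+IL27, a rise of 1.35 ± 0.09 (adjusted p = 8.27e-09).

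Paralogues that supply the same position in a complex moved apart at day 9. Atp5g1, Atp5g2 and Atp5g3 encode the same mature c subunit of the rotor ring behind different targeting peptides. Atp5g3 was at 359, 372 and 342 FPKM in Ctrl, 179, 182 and 198 with Dex, 171, 191 and 184 with IL27 and 157, 152 and 157 with Dex+IL27. Atp5g1 was at 231, 235 and 237 FPKM in Ctrl, 132, 148 and 147 with Dex, 130, 172 and 171 with IL27 and 96.8, 108 and 100.1 with Dex+IL27. Both were lower in every library with an addition than in Ctrl. Atp5g3 changed by -0.93 ± 0.06, -0.96 ± 0.06 and -1.16 ± 0.06 and Atp5g1 by -0.71 ± 0.09, -0.55 ± 0.09 and -1.16 ± 0.09 (largest adjusted p = 0.000121). Atp5g2 was at 363, 404 and 374 FPKM in Ctrl, 448, 462 and 499 with Dex, 487, 458 and 468 with IL27 and 492, 562 and 506 with Dex+IL27. It rose by 0.32 ± 0.07, 0.32 ± 0.07 and 0.49 ± 0.07 (adjusted p = 0.000968, 0.000737 and 1.17e-05). The share of Atp5g2 in the summed FPKM of the 3 genes was 39.1% ± 0.908 in Ctrl, 58.8% ± 0.466 with Dex, 58.1% ± 3.20 with IL27 and 66.9% ± 1.31 with Dex+IL27 (SD, n = 3 each), and the sum itself went from 972 FPKM in Ctrl to 798, 811 and 777.

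In the Cox7a family of complex IV, Cox7a2 fell and Cox7a2l rose. Cox7a2l encodes a factor that joins complexes III and IV in supercomplexes, and C57BL/6 mice carry a short form of it. It was at 200.4, 177 and 184 FPKM in Ctrl, 370.2, 348 and 363 with Dex, 398, 348 and 355 with IL27 and 405, 442 and 406 with Dex+IL27, with no overlap between Ctrl and the others. Cox7a2l rose by 0.96 ± 0.07, 0.99 ± 0.07 and 1.20 ± 0.07 (adjusted p = 4.27e-08, 3.68e-08 and 1.67e-09). Cox7a2, the widely expressed isoform, changed by -0.51 ± 0.06, -0.37 ± 0.06 and -0.60 ± 0.06 (adjusted p = 4.52e-06, 8.81e-05 and 4.68e-07), and RefSeq lists Tmem30a over 15.3% and the pseudogene Gm51685 over 17.7% of its locus. The share of Cox7a2l in the family was 37.3% ± 1.68 in Ctrl, 61.9% ± 1.39 with Dex, 59.5% ± 1.55 with IL27 and 66.5% ± 0.585 with Dex+IL27. At day 3 this share was between 50.2% and 54.7% in all 12 libraries. Cox7a1, the isoform of heart and skeletal muscle, was low, at 0.78, 3.82 and 3.10 FPKM in Ctrl, 4.32, 4.09 and 4.18 with Dex, 10.2, 9.95 and 10.4 with IL27 and 10.1, 8.06 and 8.82 with Dex+IL27. It rose by 2.00 ± 0.37 with IL27 and 1.85 ± 0.37 with Dex+IL27 (adjusted p = 0.000307 and 0.00046), and its change of 0.72 with Dex did not pass.

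**Figure D4:**
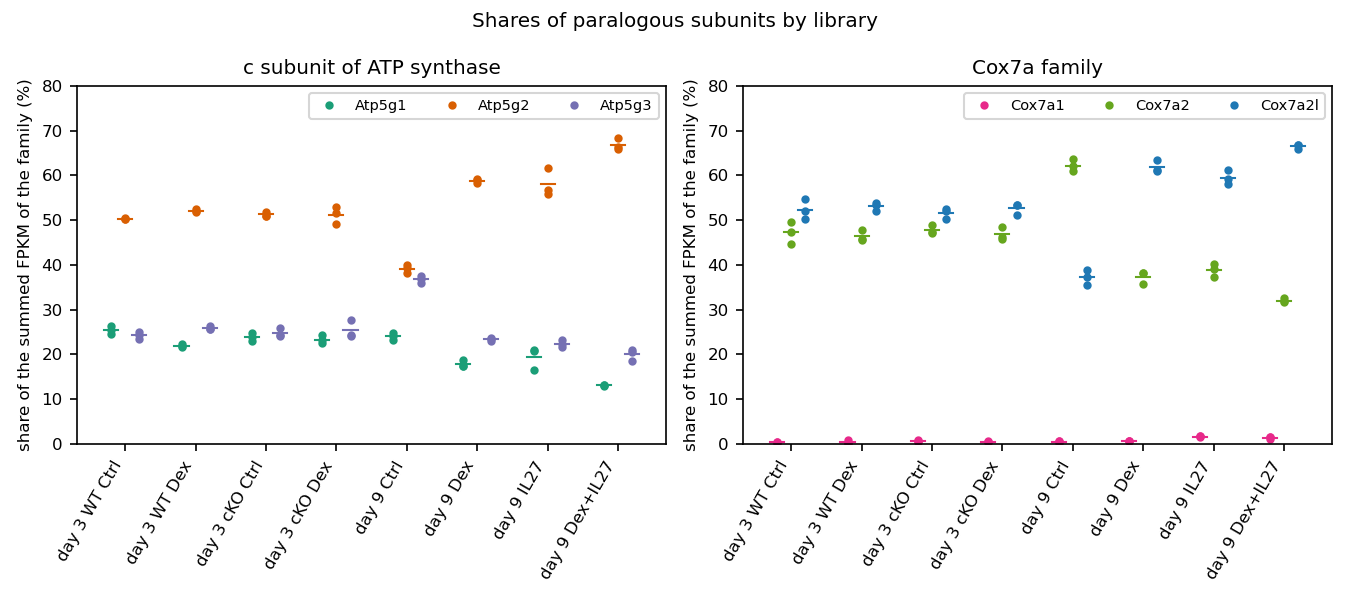
Share of each paralogue in the summed FPKM of its family (percent, axis from 0), per library (points) with the group mean (line), for the c subunit genes of ATP synthase and the Cox7a genes of complex IV, over the 8 groups. At day 9 Atp5g2 moves from 39.1% in Ctrl to 66.9% with Dex+IL27 and Cox7a2l from 37.3% to 66.5%.

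Further isoform pairs of complex IV held small minor forms. Cox6b2, a form best known from testis, was at 18.3, 10.8 and 18.4 FPKM in Ctrl and 26.5, 33.3 and 38.4 with Dex. It rose by 1.06 ± 0.20 (adjusted p = 0.000344), and its share beside Cox6b1 went from 3.55% ± 1.00 to 9.30% ± 1.31 (SD, n = 3). Cox6a2, the form of heart and skeletal muscle, was at 23.3, 27.6 and 23.3 FPKM in day 3 WT Ctrl and at 0.78, 0.97 and 0.98 FPKM in day 9 Ctrl. With IL27 it was at 1.31, 4.63 and 1.95 FPKM, a rise of 1.53 ± 0.51 (adjusted p = 0.0177) that was lost without IL27 replicate 2, the highest of the 3, and without Ctrl replicate 1 (adjusted p from 0.0024 to 0.172 over its alternatives). Cox6a1, the common form, was at 428, 425 and 418 FPKM in Ctrl and 263, 286 and 274 with Dex+IL27, a change of -0.59 ± 0.06 (adjusted p = 4.02e-07).

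Dex+IL27 was also set against each agent alone, and in both comparisons more members fell than rose. Members below both single agents at once were not counted. Against Dex alone, Dex+IL27 lowered 26 members and raised 7, 37.9% in all, where 32% of all genes passed, 17.1% falling and 14.9% rising. Against IL27 alone it lowered 44 and raised 4, 55.2% in all, where 26.1% of all genes passed, 14.3% falling and 11.7% rising. Both counts moved when a library was left out. Against Dex, the 7 raised members became 2 without Dex replicate 2, 4 without Dex replicate 1 and 3 without Dex+IL27 replicate 2. Against IL27, the 48 members that passed became 31 without Dex+IL27 replicate 1, 32 without IL27 replicate 3 and 29 with only these 2 groups in the fit, and the 4 raised members became 8 without IL27 replicate 1. The 2 comparisons share the Dex+IL27 libraries. Their medians over the members were -0.12 and -0.20, beside 0.00 and 0.00 over all genes.

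With both agents Uqcr11 changed by -0.63 ± 0.08 against Dex (adjusted p = 9.05e-05) and by -0.60 ± 0.08 against IL27 (adjusted p = 0.000175). Ndufc1, an accessory subunit of complex I, was at 89.3, 107 and 97.8 FPKM with Dex, 95.4, 94.3 and 107 with IL27 and 69.8, 62.4 and 68.6 with both. Its Dex+IL27 libraries lay below both other groups, with changes of -0.52 ± 0.09 and -0.54 ± 0.09 (adjusted p = 0.000694 and 0.000677). Atp5g1 changed by -0.46 ± 0.09 against Dex and -0.61 ± 0.09 against IL27 (adjusted p = 0.00203 and 0.000322). Uqcrq, a small complex III subunit, differed more from IL27 than from Dex by its point estimates, a difference that was not tested. It was at 239, 345 and 305 FPKM with IL27 and 151, 186 and 148 with both, a change of -0.85 ± 0.11 (adjusted p = 0.000114), and its change against Dex was -0.37 ± 0.11 (0.0214). Uqcrh rose again, by 0.51 ± 0.09 against Dex and 0.58 ± 0.09 against IL27 (adjusted p = 0.000628 and 0.000322), and Ndufa6 rose by 0.34 ± 0.07 against IL27 (0.00407). Sdhd rose by 0.21 ± 0.07 against Dex (adjusted p = 0.0486), a call that was lost in 10 of its 14 alternatives (adjusted p from 0.032 to 0.205), among them each Dex library left out and Dex+IL27 replicates 2 and 3 left out.

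The Dex response of some members differed with IL27 present. In the Dex by IL27 interaction, which is the change from IL27 to Dex+IL27 minus the change from Ctrl to Dex, 21 members were higher and 6 lower, where 28.5% of all genes passed, 13.7% higher and 14.7% lower. In all, 31% of the members passed, close to the 28.5% of all genes, and what departed was the split into higher and lower. The interaction subtracts the change from Ctrl to Dex, in which 60 of the 87 members and 27.4% of all genes fell. The split is therefore not separate from that fall, and genes that fell alike were not set beside the members. The members' median was 0.12 and that of all genes -0.02. A positive value means that Dex lowered a gene less, or raised it more, in the presence of IL27.

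Atp5g3 changed by -0.93 with Dex in the absence of IL27 and by -0.21 in its presence, an interaction of 0.72 ± 0.09 (adjusted p = 7.53e-05). Sdhd changed by -0.53 and by 0.16 (the latter did not pass), an interaction of 0.69 ± 0.11 (adjusted p = 0.000303). Uqcrfs1 changed by -0.82 and by -0.22, an interaction of 0.59 ± 0.08 (adjusted p = 0.000167). Of the 8 members that Dex raised in the absence of IL27, 4 were lower in the interaction, namely Cox7a2l, Cox6b2, Ndufv3 and Ndufa6. The other 4 did not pass, with 0.19 for Uqcrh, -0.15 for Atp5g2, -0.30 for Atp5sl and -0.57 for Atp5s. These 8 were picked by the change from Ctrl to Dex, which the interaction subtracts, so their signs are not independent of that choice. The share among all genes that Dex raised was not counted. Cox7a2l changed by 0.96 and by 0.21, an interaction of -0.75 ± 0.10 (adjusted p = 8.39e-05), Ndufa6 gave -0.53 ± 0.11 (0.00197) and Ndufv3 gave -0.78 ± 0.14 (0.0011). By complex, 6 of 15 ATP synthase genes, 4 of 8 complex III genes and 6 of 15 complex IV genes were higher in the interaction, against 2 of 36 complex I subunits. The 6 lower members were 3 complex I subunits and 3 complex IV genes. These shares were not tested against each other.

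**Figure D5:**
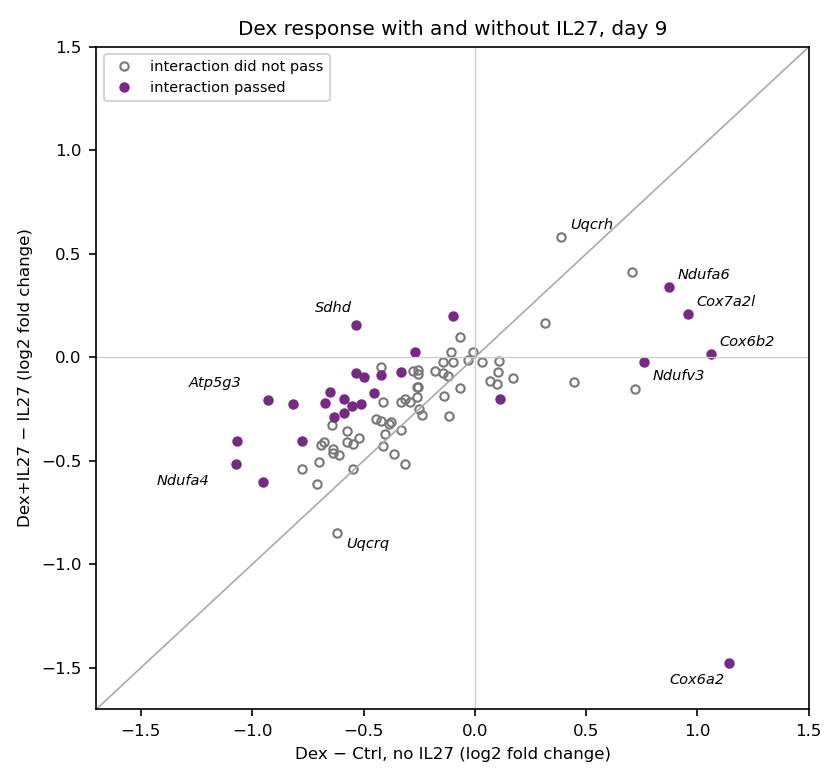
Log2 fold change of each member from Ctrl to Dex (horizontal) and from IL27 to Dex+IL27 (vertical) at day 9, 3 libraries per group, with the diagonal of equal change. Filled points passed the interaction test; Atp5g3 and Sdhd lie above the diagonal with interactions of 0.72 and 0.69, and Cox7a2l lies below it with -0.75.

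At day 3 few members passed in any comparison. In WT cells, Dex raised Uqcrh and lowered Atp5g1, 2 of the 87 members, where 9.43% of all genes passed, 4.93% rising and 4.5% falling. Uqcrh was at 236, 223 and 237 FPKM in WT Ctrl and 274, 270.0 and 295 in WT Dex, without overlap, a rise of 0.29 ± 0.06 (edgeR adjusted p = 0.0035). Atp5g1 was at 238, 268 and 245 FPKM in WT Ctrl and 212, 213 and 210.2 in WT Dex, a change of -0.23 ± 0.06 (adjusted p = 0.0221). The Atp5g1 call was lost without WT Ctrl replicate 2 or any of the 3 WT Dex replicates, and with all 24 libraries in 1 fit (adjusted p from 0.00643 to 0.136). The count of members was 8 with DESeq2, and with library totals alone it was 4, of which 1 was higher and 3 lower. The members' median was -0.00, beside 0.01 over all genes.

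In cKO cells no member passed with Dex in edgeR, nor in DESeq2, and 0% of all genes passed. At an unadjusted p under 0.05 there were 3 members and 399 of 11967 genes. In cKO cells Uqcrh changed by 0.01 and Atp5g1 by -0.05, and neither passed. The genotype by Dex interaction, which tests the difference between the Dex responses of the 2 genotypes, held no member in edgeR and 1 in DESeq2, where 2.95% of all genes passed in edgeR, 1.57% higher and 1.38% lower. Its value was 0.28 ± 0.08 for Uqcrh (adjusted p = 0.0774) and -0.18 ± 0.08 for Atp5g1 (adjusted p = 0.32), and 7 members had an unadjusted p under 0.05.

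Between genotypes, Cox6b1, a subunit of complex IV on the side of cytochrome c, was higher in cKO Ctrl than in WT Ctrl, the 1 member to pass where 2.36% of all genes did, 1.38% higher and 0.986% lower. It was at 275, 281 and 287 FPKM in WT Ctrl and 342, 317 and 325 in cKO Ctrl, a difference of 0.23 ± 0.05 (adjusted p = 0.0278). That call was lost in 6 of 13 alternatives, namely library totals alone, only these 2 groups in the fit, and leaving out WT Ctrl replicate 1 or 2 or cKO Ctrl replicate 4 or 6 (adjusted p from 0.00353 to 0.119). With Dex, Sdhb was higher in cKO than in WT, the 1 member to pass where 6.9% of all genes did, 3.63% higher and 3.28% lower. It was at 243, 250.4 and 252 FPKM in WT Dex and 281, 270.0 and 283 in cKO Dex, a difference of 0.16 ± 0.04 (adjusted p = 0.0366). The Sdhb call was lost in 10 of 13 alternatives, among them each of the 6 libraries left out (adjusted p from 0.00928 to 0.145).

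The Dex response of the members differed between the 2 days. In 1 fit of all 24 libraries, the response of WT cells at day 9 minus that at day 3 was lower for 49 members and higher for 9, where 39.6% of all genes passed, 19.2% lower and 20.4% higher. The members' median was -0.31 and that of all genes 0.05. Ndufa4, at 422, 404 and 425 FPKM in day 3 WT Ctrl and 392, 421 and 415 in WT Dex, overlapped between these groups at day 3 but not at day 9, a difference of -1.03 ± 0.11 (adjusted p = 7.9e-08). Atp5g3 gave -0.98 ± 0.08 (adjusted p = 6.93e-09), and Cox7a2l gave 0.91 ± 0.10 (9.1e-08). Stimulation number, length of exposure and day differ together between these responses and cannot be told apart.

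Nuclear respiratory factor 1 (NRF1) is a transcription factor known to bind GC-rich palindromes in promoters of many respiratory chain genes, so the promoters of the members were searched for its letters. RefSeq (GRCm38.p6) gave a promoter for 74 of the 87 members, 1 per gene, and the 250 bases before each start were searched on both strands. The letters searched (GCGC, then A, then any base, then GCGC) were found in 13 of 74 members (17.6%) and in 1044 of 27025 promoters of all genes (3.86%). Members had to reach a mean of 1 FPKM in these libraries, but the 27025 promoters were not limited by expression. Whether the letters of this or the other motifs are more frequent in members than in other genes expressed here was not tested. The NRF1 letters were in 10 of 51 members that fell with Dex+IL27 (19.6%) and in 1 of 13 that rose (7.69%), beside 17.6% of all 74. The other members with the letters were Atp5h and Ndufs5, which did not pass with Dex+IL27. Whether the letters go with the direction of change was not tested. Of the other motifs searched, CCGGAAGT (ETS and GABPA) was in 3 of 74 members (4.05%; 2.93% of all promoters), TCAAGGTCA (estrogen-related receptors) in 1 (1.35%; 0.366%), TTCCNGGAA (STAT) in 1 (1.35%; 0.914%), YY1 (AAGATGG followed by CGGC) in 0 (0.218% of all) and the glucocorticoid receptor motif (GNACA and TGTNC with 3 bases of any kind between) in 0 (0.381% of all). The ETS and STAT letters share a run of TTCC on one strand or the other and their matches can overlap. A match is not a measured binding site, and no match says only that these letters are not in this window.

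Shown here are stretches around the NRF1 letters (in capitals) of 3 members that fell and of the 1 that rose, to set a shared motif beside opposite changes. Ndufb4, Ndufs6, Ndufaf4 and Atp5g2 were chosen with their values seen. All stretches are printed 5′ to 3′ on the strand of the gene and end before its start.
Ndufb4, chr16:37654500-37654609, minus strand: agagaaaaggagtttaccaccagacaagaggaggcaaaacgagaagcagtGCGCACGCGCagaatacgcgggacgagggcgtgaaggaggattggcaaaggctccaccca
Ndufs6, chr13:73328483-73328548, minus strand: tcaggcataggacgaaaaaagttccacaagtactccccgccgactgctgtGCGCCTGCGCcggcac
Ndufaf4, chr4:24897920-24898029, plus strand: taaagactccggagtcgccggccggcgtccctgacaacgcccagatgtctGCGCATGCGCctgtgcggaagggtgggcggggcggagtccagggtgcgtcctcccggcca
Atp5g2, chr15:102671048-102671139, minus strand: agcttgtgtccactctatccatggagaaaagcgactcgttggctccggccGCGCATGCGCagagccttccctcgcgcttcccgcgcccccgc
The motif lies 191 to 182 bases before the start in Ndufb4, 16 to 7 in Ndufs6, 113 to 104 in Ndufaf4 and 42 to 33 in Atp5g2, and Ndufb4 holds 3 such matches in its 250 bases, of which 1 is shown. In Ndufs6 the letters shown read as the motif on the opposite strand. Ndufs6, an accessory complex I subunit, was at 140.0, 142 and 137 FPKM in Ctrl and 60.05, 55.95 and 57.9 with Dex+IL27, a change of -1.23 ± 0.10 (adjusted p = 3.75e-08). Ndufb4, a subunit of the membrane arm, was at 136, 144 and 141 FPKM in Ctrl and 76.7, 85.9 and 93.5 with Dex+IL27, a change of -0.68 ± 0.09 (adjusted p = 9.26e-06). Ndufaf4 and Atp5g2, which hold the letters GCGCATGCGC, changed by -1.51 and 0.49.

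Other nuclear genes of mitochondria were counted in lists at day 9, to be read beside the 27.4%, 28.1% and 32.6% of all genes that fell with Dex, IL27 and Dex+IL27 and the 55.6%, 57.4% and 66.9% that passed. Of 18 respiratory chain genes outside the rule, 11 fell and 4 rose with Dex, 10 and 3 with IL27, and 11 and 4 with Dex+IL27. Cycs, which encodes cytochrome c, changed by -1.34 ± 0.08, -0.86 ± 0.08 and -1.61 ± 0.08 in that order (adjusted p = 1.12e-08, 4.87e-07 and 6.8e-10). Of 19 tricarboxylic acid cycle genes, 14 fell and 2 rose with Dex, 13 and 1 with IL27, and 16 and 1 with Dex+IL27, with medians of -0.50, -0.45 and -0.83. Idh3a, the catalytic subunit of NAD-dependent isocitrate dehydrogenase, changed by -1.17 ± 0.09, -1.16 ± 0.09 and -1.82 ± 0.09 (largest adjusted p = 7.47e-08). Of 76 mitochondrial ribosomal protein genes, 63 fell with Dex, 58 with IL27 and 63 with Dex+IL27, and 4, 5 and 6 rose.

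Most import genes fell, while the lists of regulators and of complex IV assembly were more mixed. Of 25 tested import genes, 23 fell in each of the 3 comparisons, among them Timm17a, a part of the inner membrane translocase, at -1.41 ± 0.09, -1.25 ± 0.09 and -1.76 ± 0.09 (largest adjusted p = 4.78e-08). Of 16 tested regulators of mitochondrial biogenesis, 9 fell and 2 rose with Dex, 8 and 1 with IL27, and 9 and 2 with Dex+IL27. As 5, 7 and 5 of them did not pass, the total passing with IL27 and with Dex+IL27 was close to the share of all genes. Lrpprc, which stabilises mitochondrial messenger RNA, changed by -1.19 ± 0.12, -1.19 ± 0.12 and -1.75 ± 0.13 (largest adjusted p = 1.48e-06). Nrf1, which encodes the factor whose letters were searched, changed by -0.60 ± 0.09 with Dex and -0.81 ± 0.09 with IL27 (adjusted p = 4.23e-05 and 2.17e-06). Its change with Dex+IL27, the comparison used for the motif counts, is not given here. Of 19 complex IV assembly genes, 9 fell and 2 rose with Dex, and 8 fell and 5 rose with IL27 and with Dex+IL27. In all, 11, 13 and 13 of these 19 genes passed, close to the share of all genes. Cox10, a heme A synthesis enzyme, changed by -0.88 ± 0.12 and Surf1, an assembly factor, by 0.75 ± 0.09 with Dex (adjusted p = 1.22e-05 and 9.36e-06).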

How the data were processed

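RNA of sorted, cultured mouse CD8+ T cells was sequenced in 24 libraries by a modified SMART-Seq2 protocol, which amplifies complementary DNA and carries no molecular identifiers or strand, per the labels' protocols. Expected counts per gene, deposited by the authors, are RSEM estimates without normalization. FPKM values, deposited by the authors for the same libraries, are RSEM values scaled by TMM, as the name of the deposited table states. The submitters' processing notes name TopHat, RSEM, DESeq and mm9, with no versions. Genes keep the deposited symbols, and no mm9 annotation was used here.

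Counts were rounded and tested in edgeR 4.0.16 (R 4.3.3), quasi-likelihood, two-sided, with TMM scaling and filterByExpr (minimum count 10, minimum total 15), which kept 11967 genes at day 3, 12320 at day 9 and 12666 over both. The 12 libraries of a day shared 1 fit. P-values were adjusted by Benjamini-Hochberg over all genes tested, and under 0.05 counted as passing. SE was the log2 fold change divided by the square root of F. The scripts were tested on simulated data. FPKM served for levels, sums and shares. Promoters and overlapping genes came from RefSeq tables of GRCm38.p6, in which all 87 members were found. Figures used matplotlib 3.10.9 in Python 3.11.15.

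Alternatives were DESeq2 size factors, library totals only, Rn45s left out, genes of low count kept in, DESeq2 1.42.0 with its Wald test, all 24 libraries or only the groups compared in the fit, a replicate block, and each library left out. Groups and replicate numbers came from the titles. Members, lists and the naming rule (22 fixed genes, up to 4 passing members of each complex with the lowest p, the 3 largest rises and falls, and up to 3 genes of each other list) were chosen with earlier results of these data known.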

Additional observations from a re-analysis of the deposited data

Results flagged for a closer look

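Differences between responses passed a test of the difference itself in the pair of contrasts that follow. The first is the Dex response at day 9 with against without IL27, in which 21 members were higher and 6 lower in edgeR (adjusted p under 0.05). Of all genes tested, 28.5% passed, 13.7% higher and 14.7% lower, and the 31% of members that passed is close to that total. In ATP synthase, the interaction was 0.72 for Atp5g3, 0.37 for Atp5b and 0.34 for Atp5a1. In complexes II and III it was 0.69 for Sdhd, 0.59 for Uqcrfs1 and 0.32 for Uqcrc1, and in complex I it was 0.45 for Ndufs1, 0.67 for the assembly factor Ndufaf4 and -0.78 for Ndufv3. In complex IV it was 0.55 for Ndufa4, 0.29 for Cox7a2, 0.26 for Cox5a, -0.75 for Cox7a2l, -1.05 for Cox6b2 and -2.62 for Cox6a2, a gene under 5 FPKM in each library of day 9. The call of Ndufaf4 was lost in 10 of 19 alternatives (adjusted p from 0.00137 to 0.0821), that of Cox5a in 6 (0.00973 to 0.0694) and that of Cox7a2 without Dex replicate 1 (at most 0.059).

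The second is the Dex response of WT cells at day 9 against day 3, in which 49 members were lower and 9 higher. That was 66.7% of the members, beside 39.6% of all genes tested, of which 19.2% were lower and 20.4% higher. In complex I the difference was -1.03 for Ndufs5, which has a pseudogene named after it, -0.94 for Ndufaf4, -0.57 for Ndufs1 and -0.46 for Ndufv1. In complexes II and III it was -0.51 for Sdhd, -0.28 for Sdhb, -1.02 for Uqcr11, -0.73 for Uqcrfs1 and -0.51 for Uqcrc1. In complex IV it was -1.03 for Ndufa4, -0.51 for Cox7a2, -0.31 for Cox6a1 and -0.20 for Cox5a, and 0.91 for Cox7a2l, 1.00 for Cox6b2 and 1.72 for Cox6a2. In ATP synthase it was -0.98 for Atp5g3, -0.63 for Atp5b, -0.61 for Atp5a1, -0.45 for Atp5g1 and 0.31 for Atp5g2. The call of Cox5a was lost in 10 of 18 alternatives (adjusted p from 0.00528 to 0.145).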

How the results depend on the processing

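The counts of members that passed stayed within 1.5 times in every setting that kept all libraries for 7 of 12 comparisons. They ran from 64 to 71 for Dex at day 9 (63 to 66 with a library left out), 61 to 68 for IL27 (58 to 64), 68 to 75 for Dex+IL27 (68 to 72), 32 to 43 for Dex+IL27 against Dex (24 to 30), 24 to 30 for the Dex by IL27 interaction (21 to 31) and 53 to 63 for the difference between days (53 to 59). For Dex+IL27 against IL27, 48 members became 29 with only the groups compared, and 31 to 53 with a library left out. For day 3 WT Dex, 2 members became 4 with library totals alone, 4 without the low-count filter, 8 with DESeq2, 6 with only the groups compared and 6 with the replicate block, and 1 to 2 with a library left out. For cKO against WT Ctrl, 1 became 0 with library totals alone, 2 without Rn45s, 2 without the filter, 2 with DESeq2 and 0 with only the groups compared, and 0 to 2 with a library left out. For cKO against WT with Dex, 1 became 0 with library totals alone, 5 with DESeq2, 0 with all 24 libraries and 0 with only the groups compared, and 0 to 2 with a library left out. For the genotype by Dex interaction, 0 became 1 with DESeq2 and 1 with the replicate block. The cause was not tested. Same-numbered libraries did not deviate together (correlations from -0.037 to 0.078 at day 3 and -0.137 to 0.209 at day 9), and the replicate block gave 66, 67 and 68 members for Dex, IL27 and Dex+IL27 against Ctrl. Of 399 named results, 0 reversed, and 61 lost their call in at least 1 alternative, 44 of them in a setting that keeps every library. Low counts limit Cox6a2 and Cox7a1.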

Other observations

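Genes for coenzyme Q, the lipid that carries electrons from complexes I and II to complex III, and for mitochondrial turnover were also described at day 9. Of 12 coenzyme Q synthesis genes, 7 fell and 3 rose with Dex, 7 and 3 with IL27, and 8 and 3 with Dex+IL27, where 27.4%, 28.1% and 32.6% of all genes fell. Pdss1, which makes the isoprenoid tail, changed by -1.55 ± 0.17, -1.97 ± 0.17 and -2.67 ± 0.18 in that order (edgeR adjusted p = 1.97e-06, 2.36e-07 and 7.07e-09). Adck3, a kinase-like protein of the same pathway, rose by 2.07 ± 0.15 with IL27 and by 2.20 ± 0.16 with Dex+IL27 (adjusted p = 7.05e-08 and 1.07e-08).

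Of 13 tested genes of mitophagy and mitochondrial dynamics, 3 rose and 3 fell with Dex, 5 and 4 with IL27, and 6 and 4 with Dex+IL27. In all, 6, 9 and 10 of the 13 passed, where 55.6%, 57.4% and 66.9% of all genes did, so the list does not stand out by its counts. The genes named next were among the 3 with the lowest p in it. Bnip3l, a mitophagy receptor, rose by 1.24 ± 0.14, 1.65 ± 0.14 and 1.99 ± 0.14 (adjusted p = 3.61e-06, 2.36e-07 and 1.39e-08). Sqstm1, an autophagy adaptor, rose by 0.90 ± 0.06, 0.97 ± 0.06 and 1.11 ± 0.06 (largest adjusted p = 1.83e-08). Dnm1l, the fission GTPase, fell by 0.56 ± 0.07 with Dex+IL27 (adjusted p = 3.74e-06).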
